A study of Schizosaccharomyces pombe with 4 samples.

Results

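Intergenic non-coding RNAs are the annotated transcripts of the fission yeast Schizosaccharomyces pombe that lie between protein-coding genes. They were taken here as the genes with an SPNCRNA identifier that have no exon base in common, on either strand, with an exon of a coding gene, and they numbered 425 of the 7092 genes in the deposited tables. A further 1107 SPNCRNA genes that share exon bases with coding genes, and 3 intergenic ones left out by name, were not counted among them. The study measured RNA levels by sequencing total RNA from a strain with the gene loz1 deleted (genotype loz1 delta) and from wild type, with 2 libraries of each. Loz1 is a zinc finger protein that represses genes of zinc uptake when zinc is plentiful. Every culture was in EMM, a minimal medium, here limited for zinc and then given zinc (100 mM, as the labels write it), and was taken at an OD600 of about 6.0; the labels give no strain background, mating type or number of clones, and do not say whether the 2 libraries of a group came from separate cultures. The p-values below therefore measure only the spread between these libraries, which may be technical.

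Non-coding transcripts of this yeast are made by RNA polymerase II from gaps between genes, from promoters that fire in both directions, and from the repeats around the centromeres. Most are kept at low levels by nuclear RNA decay, in which the exosome and the MTREC complex take part, and by chromatin that limits transcription. Transcripts of the centromere repeats feed RNA interference, the pathway in which Dcr1 and Ago1 guide the methylation of histone H3 by Clr4. A few non-coding RNAs upstream of coding genes are known to set the activity of the gene they run towards, and the meiotic RNA sme2 (meiRNA) gathers the RNA-binding proteins Mei2 and Mmi1 at its own locus.

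The levels are FPKM, fragments scaled to the length of the transcript and to the mapped fragments of the library, as deposited. Before any comparison, one measurement goes against a label: the loz1 transcript itself reached 6.87 and 5.81 FPKM in wild type but 56.4 and 56.0 FPKM where the label says loz1 is deleted, so the groups are called deletion-labelled and wild type in what follows, and every direction below rests on the labels. Of the genes that Loz1 is known to repress, the zinc transporter gene zrt1 was at 971 ± 9.47 FPKM (SD, n = 2) in the deletion-labelled libraries against 24.4 ± 9.37 FPKM in wild type (n = 2). The alcohol dehydrogenase gene adh4, also repressed by Loz1, was at 3320 and 3602 FPKM against 23.3 and 32.8 FPKM. The wild type libraries were also farther apart than the deletion-labelled ones. The median absolute difference between the 2 libraries of a group, in log2(FPKM + 1), was 0.09 for the deletion-labelled pair and 0.24 for the wild type pair over all genes tested, and 0.18 and 0.42 over the intergenic non-coding RNAs tested.

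Some of the largest rises and falls are shown first as sequence. They are the 3 largest rises and the 3 largest falls among called transcripts with a mean of at least 5 FPKM whose start and end are the same in RefSeq, which leaves out SPNCRNA.532, a larger fall than SPNCRNA.389. For each of them the window runs from 250 bases before the annotated start to the first 50 bases of the transcript, which are in capitals, 5′ to 3′ in the direction of the transcript. The sequences and their coordinates are from the RefSeq genome, build ASM294v3, in which 370 of the 425 transcripts have the same start and end as in the deposited files.
SPNCRNA.136, I:40545-40844, plus strand: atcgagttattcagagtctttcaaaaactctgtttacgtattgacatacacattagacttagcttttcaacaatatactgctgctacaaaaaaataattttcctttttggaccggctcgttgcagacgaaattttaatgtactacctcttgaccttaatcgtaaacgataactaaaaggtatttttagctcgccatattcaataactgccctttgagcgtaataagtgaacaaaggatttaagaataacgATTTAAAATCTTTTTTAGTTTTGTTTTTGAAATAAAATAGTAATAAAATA
prl37 (SPNCRNA.37), I:72331-72630, minus strand: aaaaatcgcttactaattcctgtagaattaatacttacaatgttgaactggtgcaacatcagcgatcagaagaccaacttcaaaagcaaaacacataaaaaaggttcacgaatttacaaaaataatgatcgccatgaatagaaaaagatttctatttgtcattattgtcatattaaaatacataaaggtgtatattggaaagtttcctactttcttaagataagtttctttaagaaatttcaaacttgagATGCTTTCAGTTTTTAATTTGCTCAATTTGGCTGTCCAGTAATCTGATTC
SPNCRNA.287, II:21705-22004, minus strand: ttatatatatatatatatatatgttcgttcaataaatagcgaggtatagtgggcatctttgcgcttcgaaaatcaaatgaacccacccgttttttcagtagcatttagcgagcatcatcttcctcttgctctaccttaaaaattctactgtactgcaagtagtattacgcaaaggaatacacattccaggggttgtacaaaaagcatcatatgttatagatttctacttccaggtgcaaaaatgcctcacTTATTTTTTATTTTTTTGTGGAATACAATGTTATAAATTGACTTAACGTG
SPNCRNA.31, I:2975358-2975657, plus strand: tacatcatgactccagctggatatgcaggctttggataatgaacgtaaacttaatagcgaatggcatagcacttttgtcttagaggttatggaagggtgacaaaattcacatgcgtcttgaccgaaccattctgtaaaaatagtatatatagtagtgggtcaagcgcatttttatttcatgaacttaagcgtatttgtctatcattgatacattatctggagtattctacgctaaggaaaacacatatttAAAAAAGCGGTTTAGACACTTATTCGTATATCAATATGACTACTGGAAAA
SPNCRNA.398, II:2490964-2491263, plus strand: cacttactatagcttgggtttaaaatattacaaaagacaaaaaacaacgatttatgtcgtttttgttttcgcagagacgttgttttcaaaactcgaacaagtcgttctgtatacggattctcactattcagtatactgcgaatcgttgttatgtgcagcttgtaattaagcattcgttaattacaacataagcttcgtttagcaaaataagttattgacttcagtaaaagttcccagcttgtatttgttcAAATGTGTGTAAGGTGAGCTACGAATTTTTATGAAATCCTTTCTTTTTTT
SPNCRNA.389, II:2129553-2129852, plus strand: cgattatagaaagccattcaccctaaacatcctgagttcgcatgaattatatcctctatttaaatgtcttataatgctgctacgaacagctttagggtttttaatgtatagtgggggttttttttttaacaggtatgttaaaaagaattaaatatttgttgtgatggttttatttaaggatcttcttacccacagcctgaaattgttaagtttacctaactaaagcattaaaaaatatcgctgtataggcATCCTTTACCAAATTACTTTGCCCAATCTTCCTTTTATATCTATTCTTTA
These windows are rich in A and T, with between 65.0% and 70.7% of such bases. TATAAA, the core of the TATA box, was searched on both strands and occurred once in the window of SPNCRNA.287 and once in that of SPNCRNA.389, and in none of the other 4. Both matches lie after the annotated start, from base 32 of SPNCRNA.287 and from base 34 of SPNCRNA.389, there on the opposite strand. None of the 6 windows has TATAAA before the start.

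As a group the intergenic non-coding RNAs were short, unspliced and low. Their lengths ran from 56 to 5123 nt with a median of 591 nt, 423 of the 425 had 1 exon, and their median GC content was 32.2% over the 370 with RefSeq sequence. Chromosome I held 191, chromosome II 159 and chromosome III 75. The median distance to the nearest coding gene was 229 nt; 198 lay within 200 nt of one and 62 lay more than 1000 nt away. The mean FPKM over the 4 libraries had a median of 5.40, against 39.1 for the coding genes and 6.51 for the non-coding RNAs that share exon bases with coding genes. Their summed FPKM made up between 2.01% and 2.26% of the total in each library.

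Not every transcript could be compared. A gene was tested if its mean over the 4 libraries was at least 1 FPKM and its longest transcript at least 200 nt, which 301 of the 425 met; 51 were too short, 73 were long enough but too low, and 31 of the 425 were listed at 0 in every library. A value of 0 is given here only as listed, because the essential gene spt16, a histone chaperone subunit, was listed at 4.18 FPKM in wild type library 1 and at under 0.0001 FPKM in the other 3 libraries. Exon bases were shared with some other transcript by 183 of the 425, and the strandedness of the libraries is not given, so reads of such overlapping transcripts cannot be told apart.

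Among the 301 tested, 26 were higher and 37 lower in the deletion-labelled libraries at a limma adjusted p under 0.05, with p-values adjusted over all 6315 genes tested. That is 8.64% higher, where 11.9% of all genes tested and 13.1% of coding genes were called higher, and 12.3% lower, where 4.37% of all genes and 3.49% of coding genes were called lower. With quantile normalization the split was 15 higher against 33 lower. Called changes of at least 2-fold numbered 18 higher and 25 lower of the 301, beside 269 higher (4.26%) and 150 lower (2.38%) of all 6315 genes tested. At this fold the share of intergenic non-coding RNAs was above that of all genes in both directions, unlike the calls of any size. Both deletion-labelled libraries lay above both wild type libraries for 94 of the 301 (31.2%, against 44.7% of all genes tested), and below them for 100 (33.2%, against 21.6%). The 63 called transcripts occupied 59 separate loci, 26 higher and 33 lower, because some of those that fell overlap one another.

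The middle of the distribution also lay lower than that of coding genes. The median change, the log2 fold change of FPKM + 1, was -0.07 over the intergenic non-coding RNAs, 0.02 over the non-coding RNAs that share exon bases with coding genes, 0.15 over coding genes and 0.13 over all genes tested; values below are not rescaled for this shift. The number of calls moved when a library was left out. A group left with 1 library is assumed to vary like the other group, so the spread then comes from the wider wild type pair or from the tighter deletion-labelled pair alone, here and wherever a value without a library is given below. Without deletion-labelled library 1, 4 of the 26 that rose and 6 of the 37 that fell stayed called, and without library 2 it was 5 and 5; without either wild type library at least 36 of the 37 and all 26 stayed called. Over all genes the rises were 80 and 73 without a deletion-labelled library and 2115 and 1593 without a wild type library, beside 753. Over the 63 called transcripts the median absolute shift in log2 fold change was 0.08 without either deletion-labelled library, with the largest at 0.30. It was 0.16 without either wild type library, with the largest at 0.57. These shifts only restate the distance between the 2 libraries of a pair. No called transcript changed direction, but leaving out 1 library cannot reverse a change where the groups do not overlap.

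**Figure D1:**
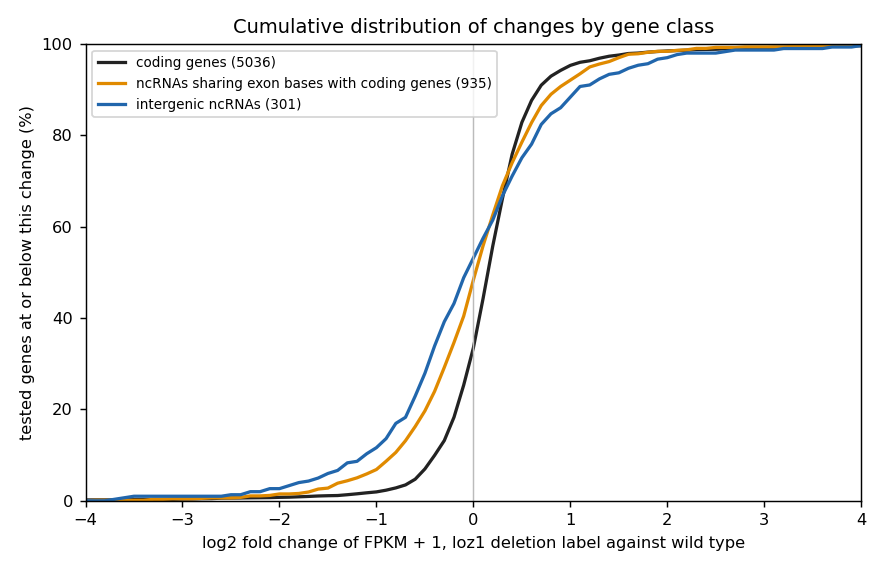
Cumulative share of tested genes (y axis, percent) at or below each log2 fold change of FPKM + 1 (x axis), for 301 intergenic non-coding RNAs, 935 non-coding RNAs sharing exon bases with coding genes and 5036 coding genes. At a change of 0 the curve of the intergenic transcripts stands at 53.2% and that of coding genes at 33.5%.

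More falls were called among the abundant and the short transcripts. Of the 101 tested transcripts with the highest mean FPKM (15.5 to 1526 FPKM), 10 rose and 22 fell. Of the 100 with the lowest (1.02 to 4.58 FPKM), 9 rose and 4 fell. Below 500 nt in length 5 rose and 16 fell of 101, and above 1000 nt 9 rose and 8 fell of 83. By position, 8 rose and 19 fell of the 146 within 200 nt of a coding gene, and 6 rose and 6 fell of the 38 more than 1000 nt away. Median GC content was 31.6% in those that rose and 33.6% in those that fell, over the 24 and 32 with RefSeq sequence. These are counts over the same libraries, and no difference between the classes was tested. The share of all genes called in the same classes was not counted, so the pattern may not be particular to these RNAs. Changes of low transcripts are also understated on the log2(FPKM + 1) scale.

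Calls were also counted by chromosome region; no difference between regions was tested. Of 33 tested within 100 kb of a chromosome end, 7 rose and 6 fell. Of 16 tested in the coding-free intervals that hold the centromeres, 4 rose and none was called lower by limma (0 had a negative change at an unadjusted p under 0.05). The 2 tested between the mating-type genes fell. On the rest of the chromosome arms 15 rose and 29 fell of 250, with a median change of -0.13. So 11 of the 26 rises came from the ends and the centromere intervals. Calls of coding genes by region were not counted, so whether the rises at the ends are particular to the non-coding RNAs was not tested.

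**Figure D2:**
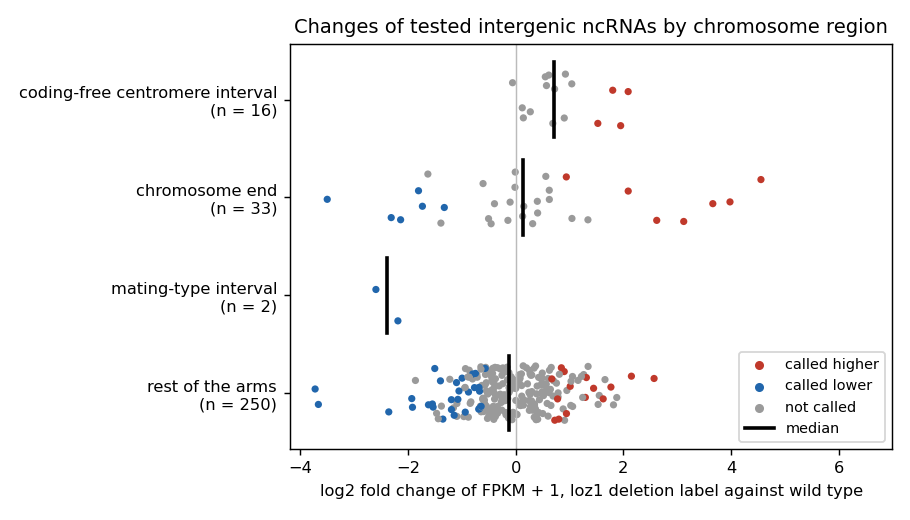
Log2 fold change of FPKM + 1 (x axis) of each tested intergenic non-coding RNA, by chromosome region, with the median as a black bar; points are spread vertically at random. The median is 0.71 in the centromere intervals, 0.13 at the chromosome ends and -0.13 on the rest of the arms.

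Chromosome ends carried the largest rises. SPNCRNA.136 (I:40795-41489, plus strand, coordinates of the files' build, ASM294v2, from here on unless stated) was at 26.0 and 31.1 FPKM in the deletion-labelled libraries, while wild type showed 0.218 and 0.285 FPKM. Its change was 4.56 ± 0.21 (SE) on the log2(FPKM + 1) scale, adjusted p = 0.00110. SPNCRNA.287 on chromosome II (II:21060-21754, minus strand) was at 18.1 and 21.0 FPKM against 0.590 and 0.645 FPKM, with a change of 3.66 ± 0.20, adjusted p = 0.00164. In each of these transcripts the deletion-labelled libraries stood far above wild type, and the libraries of a group lay close together. The pair are near-copies: 74.3% of the 100-nt stretches of each occur in the other in opposite orientation, with an identical run of 364 nt, so reads may have been divided between them. Their nearest coding genes, pfl6 (a cell surface glycoprotein) and SPBC1348.08c (also a glycoprotein), were called higher as well, by 1.74 and 1.71, from levels of at most 0.0544 FPKM in wild type. In the deletion-labelled libraries pfl6 was at 1.88 and 3.11 FPKM and SPBC1348.08c at 1.88 and 2.88 FPKM. Whether these genes share sequence was not tested, so they may not be separate measurements. SPNCRNA.601, which runs across SPNCRNA.136 and shares its repeats, was at 2.32 and 2.94 FPKM against 0.723 and 0.182 FPKM and did not pass the test (adjusted p = 0.0596).

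The RNA prl37 (SPNCRNA.37, I:71982-72380, minus strand), annotated as poly(A)-bearing, was at 13.8 and 15.9 FPKM in the deletion-labelled libraries and was listed at 0 in both wild type libraries, adjusted p = 0.00188. SPNCRNA.137, which starts at base 71030 of the same chromosome, was at 8.67 and 8.78 FPKM against 0 and 0.248 FPKM, adjusted p = 0.00420. Neither holds repeated sequence. Each lies downstream of a coding gene on its own strand, prl37 2071 nt beyond SPAPJ695.02 and SPNCRNA.137 1208 nt beyond SPAC977.17, a gene of the aquaporin (MIP) family. SPAPJ695.02 was at 48.7 and 58.3 FPKM against 0.166 and 0.357 FPKM, and SPAC977.17 at 501 and 535 FPKM against 3.38 and 2.23 FPKM. These coding genes stood above the non-coding RNA beyond them in the deletion-labelled libraries, and all 4 transcripts rose.

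Of the other rises at the ends, SPNCRNA.448 (II:4499758-4501251) was at 81.7 and 63.8 FPKM against 13.9 and 8.53 FPKM, with a change of 2.62 ± 0.26, adjusted p = 0.00619. It lies 363 nt from SPBPB2B2.16c, a membrane transporter gene on the other strand that rose by 3.49. Without deletion-labelled library 1 its call was lost (adjusted p = 0.0533). SPNCRNA.70, named after its values were seen, was at 9.09 and 7.89 FPKM against 1.62 and 0.892 FPKM, adjusted p = 0.0124, next to SPAC212.08c, a GPI-anchored protein gene that rose by 2.36. The RNA meu19 (SPNCRNA.29) on chromosome III was at 205 and 172 FPKM against 106 and 89.1 FPKM, with a change of 0.94 ± 0.14, adjusted p = 0.0195. Calls of SPNCRNA.70 and meu19 were lost with either deletion-labelled library left out (adjusted p = 0.194 and 0.111 for meu19). The related RNA meu3, whose sequence shares 58.8% of its 100-nt stretches with meu19, was at 233 and 192 FPKM against 184 and 139 FPKM and did not pass the test (adjusted p = 0.175, or 0.0208 without wild type library 1).

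The ends also held falls. The lncRNA nam3 has 2 overlapping entries on chromosome II. The shorter one, SPNCRNA.532 (II:4465475-4466352, minus strand), was at 3.98 and 3.96 FPKM in the deletion-labelled libraries, while wild type showed 36.9 and 82.8 FPKM, a change of -3.50 ± 0.38, adjusted p = 0.00899. The longer one, SPNCRNA.1696, was at 2.81 and 1.74 FPKM against 11.0 and 15.8 FPKM, with a change of -2.14 ± 0.28, adjusted p = 0.0134. The wild type libraries differ from each other by more than the deletion-labelled ones do, and the groups do not overlap for either entry. Both calls were lost with either deletion-labelled library left out (adjusted p from 0.0529 to 0.107). The remaining 4 falls, named after their values were seen, were SPNCRNA.284, SPNCRNA.289, SPNCRNA.1303 and SPNCRNA.451. SPNCRNA.289 lies within SPNCRNA.1303, and both are convergent with cmt2, a catechol O-methyltransferase gene that fell by 0.62.

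**Figure D3:**
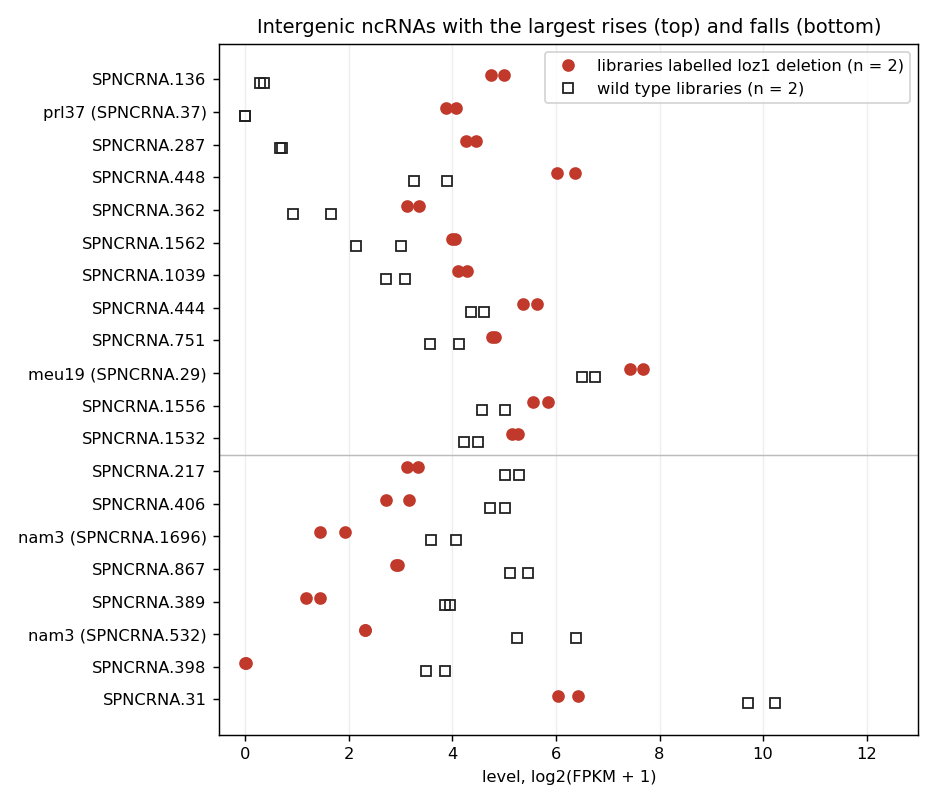
Level of the 12 largest rises and 8 largest falls with a mean of at least 5 FPKM in each library, as log2(FPKM + 1) on the x axis; filled circles are the 2 deletion-labelled libraries and open squares the 2 wild type libraries, and marks that coincide hide each other. Circles and squares do not overlap for any of the 20, and for SPNCRNA.136 they stand at 26.0 and 31.1 FPKM against 0.218 and 0.285 FPKM.

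The centromere intervals were taken as the longest stretch without a coding gene on each chromosome: I:3751730-3790911 between per1 and emc5, II:1596745-1648152 between rpb1 and yox1, and III:1064444-1142615 between chk1 and ppc1. They hold 32 of the intergenic non-coding RNAs, most annotated as centromeric lncRNAs, of which 10 were listed at 0 in every library and 16 were tested. Their summed level was 82.8 and 79.7 FPKM in the deletion-labelled libraries and 48.8 and 39.9 FPKM in wild type. The difference came from chromosomes I (25.3 and 24.2 against 14.8 and 10.4 FPKM) and II (30.5 and 33.0 against 11.5 and 5.75 FPKM), where the groups do not overlap. On chromosome III the sums were 27.0 and 22.5 against 22.4 and 23.8 FPKM and the groups overlap. An exact permutation test of such a sum over the libraries, two-sided, cannot go below p = 0.333 with 2 libraries a group, which is its value for the total and for chromosomes I and II.

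Of the 16 tested, 15 had a positive change, as had 63.2% of all genes tested. Both deletion-labelled libraries lay above both wild type libraries for 13 of the 16 (81.2%, against 44.7% of all genes tested), and the median change was 0.71 against 0.13 over all genes. These members are not independent, since 14 of the 16 consist for more than 50% of sequence found elsewhere in the genome. SPNCRNA.362 (II:1611106-1612940) was at 7.72 and 9.27 FPKM against 2.16 and 0.900 FPKM, with a change of 1.95 ± 0.32, adjusted p = 0.0231. SPNCRNA.364 was at 3.54 and 2.68 FPKM against 0.597 and 0.263 FPKM, adjusted p = 0.0385, and SPNCRNA.371 at 5.51 and 6.34 FPKM against 0.832 and 0.441 FPKM, adjusted p = 0.0132. On chromosome I, SPNCRNA.234 was at 7.03 and 7.60 FPKM against 2.05 and 0.862 FPKM, adjusted p = 0.0266. SPNCRNA.234 and SPNCRNA.371 were named after their values were seen. All 4 calls were lost with either deletion-labelled library left out, with adjusted p = 0.138 and 0.178 for SPNCRNA.362, and that of SPNCRNA.364 also with median-ratio rescaling (0.0540) and quantile normalization (0.0648).

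The centromeric RNAs with a symbol did not pass the test. IRC1-L and IRC1-R, the copies of a repeat that borders the centromere of chromosome I, were at 5.06 and 3.88 and at 5.38 and 3.77 FPKM in the deletion-labelled libraries, against 3.97 and 3.89 and against 3.78 and 3.37 FPKM in wild type, and did not pass the test. The centromeric lncRNA nam5 was at 5.22 and 5.75 FPKM against 3.31 and 1.30 FPKM (adjusted p = 0.111), and nam6 at 3.17 and 3.97 FPKM against 2.02 and 0.968 FPKM (adjusted p = 0.118). Without wild type library 1 these 2 passed the test (0.00732 and 0.0186). SPNCRNA.365, SPNCRNA.482 and SPNCRNA.485, among the 5 tested transcripts farthest from a coding gene with SPNCRNA.362 and SPNCRNA.364, stood between 1.27 and 1.81 FPKM in the deletion-labelled libraries and between 0.295 and 0.851 FPKM in wild type, with no call. SPNCRNA.365 passed the test without wild type library 1 (0.0421), without a minimum FPKM (0.0254) and without the intensity trend (0.0222).

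**Figure D4:**
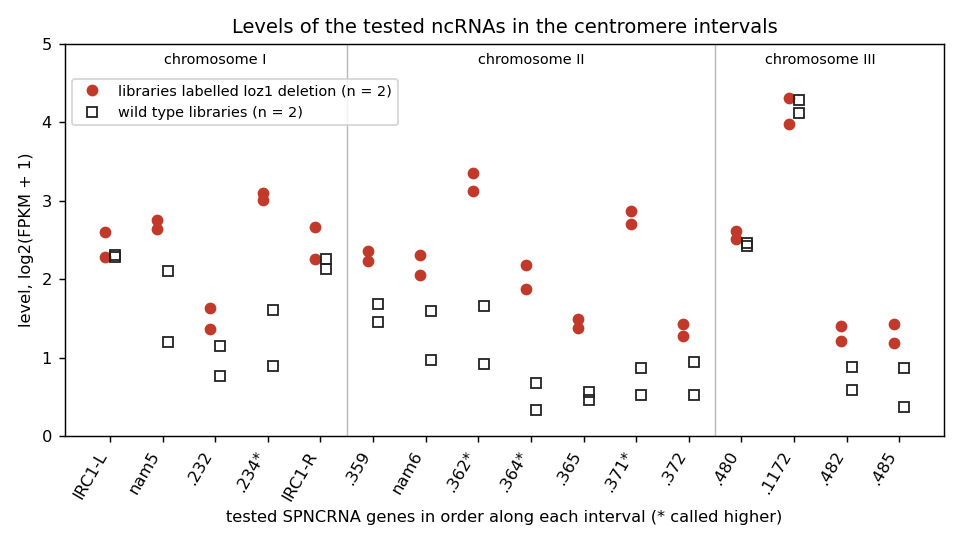
Level, as log2(FPKM + 1), of each tested transcript in the coding-free centromere intervals, in order along each chromosome; filled circles are the 2 deletion-labelled libraries, open squares the 2 wild type libraries, and an asterisk marks a call. For 13 of the 16 both circles lie above both squares.

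How far these RNAs share sequence is shown by one stretch of SPNCRNA.371, which is contained whole, as its 384 nt, in SPNCRNA.362 in opposite orientation. The following 175 bases of SPNCRNA.371 also occur in SPNCRNA.359 and have 4 identical copies in the nuclear genome, 1 on chromosome I and 3 on chromosome II.
SPNCRNA.371, II:1636595-1636769, plus strand: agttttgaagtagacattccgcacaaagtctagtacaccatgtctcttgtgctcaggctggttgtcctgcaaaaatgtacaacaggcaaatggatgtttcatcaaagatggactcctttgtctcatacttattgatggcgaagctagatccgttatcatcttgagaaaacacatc
Reads from such a stretch cannot be assigned to one locus, and how the authors' counting divided them is not given in the sources used here.

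The mating-type interval (II:2114449-2138268) lies among the mating-type genes, whose silent copies are normally kept in heterochromatin. SPNCRNA.389 (II:2129803-2130589) was at 1.72 and 1.26 FPKM against 13.6 and 14.5 FPKM, with a change of -2.60 ± 0.21, adjusted p = 0.00381. SPNCRNA.390 (II:2134981-2136530), named after its values were seen, was at 0.898 and 0.729 FPKM against 6.60 and 7.98 FPKM, with a change of -2.19 ± 0.24, adjusted p = 0.00925. All 787 nt of SPNCRNA.389 recur in SPNCRNA.390 in opposite orientation, so the 2 values may be one measurement. The M mating-type gene mat3-Mc, 1586 nt from SPNCRNA.390, is annotated at a silenced mating-type locus. It was listed at 0 and 0.150 FPKM in the deletion-labelled libraries, while wild type showed 160 and 264 FPKM. Whether these reads came from that locus or from another copy of the mating-type gene was not tested. The labels give the mating type of neither strain, so a difference in mating type between the strains and an effect of the deletion cannot be told apart here, nor can they for the RNAs near genes of mating and meiosis below. In bulk RNA, fewer cells of a type and less RNA per cell cannot be told apart either. The other transcript of the interval was listed at 0 in every library.

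On the arms, the largest fall by level was SPNCRNA.31 (I:2975608-2976007, plus strand), with 84.9 and 65.1 FPKM in the deletion-labelled libraries and 1194 and 833 FPKM in wild type. Its change was -3.73 ± 0.22, adjusted p = 0.00190, and it stayed called in each of the 13 other settings tried. It lies inside SPNCRNA.867 (I:2973017-2976287, same strand), which was at 6.53 and 6.71 FPKM against 43.3 and 33.5 FPKM, with a change of -2.36 ± 0.17, adjusted p = 0.00303. Per length the short RNA thus stood far above the long one that contains it, in every library. Both run towards mfc1, a copper transporter gene that starts 82 nt beyond SPNCRNA.867; mfc1 was at 6.76 and 6.10 FPKM against 4.08 and 3.93 FPKM and did not pass the test (adjusted p = 0.108).

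Other falls on the arms lay beside coding genes that did not always follow. SPNCRNA.398, 91 nt from pim1 and transcribed away from it, was at 0 and 0.00413 FPKM against 10.2 and 13.5 FPKM, adjusted p = 0.00299. Its neighbour pim1, which codes for the exchange factor of the Ran GTPase, rose by 0.76 (adjusted p = 0.0342). All of SPNCRNA.398 is covered by other non-coding transcripts, of which SPNCRNA.1520 was at 16.5 and 16.3 FPKM against 14.7 and 17.8 FPKM. SPNCRNA.217 (I:3158482-3159120), upstream of the pyruvate decarboxylase gene pdc201 on its strand, was at 7.77 and 9.04 FPKM against 31.4 and 37.8 FPKM, with a change of -1.92 ± 0.16, adjusted p = 0.00420. The gene pdc201 fell with it, from 1461 and 1240 FPKM to 436 and 414 FPKM. SPNCRNA.406, upstream of efc25, a gene for a Ras exchange factor, was at 7.90 and 5.58 FPKM against 25.4 and 31.3 FPKM, adjusted p = 0.00899, while efc25 did not pass the test (adjusted p = 0.415). With the spread taken from the wild type pair alone, SPNCRNA.406 changed by -1.71 without deletion-labelled library 2 (adjusted p = 0.0767) and by -2.15 without library 1 (0.0469), and SPNCRNA.217 by -1.82 without library 1 (0.0544) and by -2.02 without library 2 (0.0495).

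Among transcripts with a mean of at least 5 FPKM, the largest rises on the arms were smaller than those of SPNCRNA.136, SPNCRNA.287, prl37 and SPNCRNA.448 at the ends. SPNCRNA.1562 and SPNCRNA.1039 still changed by more than meu19, also at an end. SPNCRNA.1562 was at 15.6 and 14.9 FPKM against 3.42 and 7.04 FPKM, with a change of 1.45 ± 0.32, adjusted p = 0.0431. SPNCRNA.1039, 762 nt from vht1, the biotin importer gene, and divergent from it, was at 18.5 and 16.2 FPKM against 5.54 and 7.54 FPKM, with a change of 1.29 ± 0.20, adjusted p = 0.0200. Here the neighbour rose more, vht1 by 2.24, to 666 and 725 FPKM from 161 and 134 FPKM. SPNCRNA.444, next to the agmatinase gene SPBC8E4.03, was at 40.1 and 48.6 FPKM against 19.5 and 23.5 FPKM, and SPBC8E4.03 rose by 0.64. SPNCRNA.751, 12 nt from vma1, a subunit gene of the vacuolar proton pump, was at 26.0 and 27.4 FPKM against 10.9 and 16.5 FPKM, and vma1 rose by 0.64.

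SPNCRNA.1556, divergent from lid2, a histone demethylase gene, was at 45.9 and 56.9 FPKM against 22.9 and 31.5 FPKM, and lid2 changed by -0.09, with no call. SPNCRNA.1532, divergent from the transketolase gene tkt1, was at 37.6 and 34.6 FPKM against 17.8 and 21.6 FPKM; tkt1 did not pass the test. All 6 of these rises on the arms lost their call with either deletion-labelled library left out (adjusted p from 0.145 to 0.348). SPNCRNA.1562, SPNCRNA.751 and SPNCRNA.1556 also lost it with median-ratio rescaling (adjusted p from 0.0700 to 0.0931), and SPNCRNA.1562, SPNCRNA.444, SPNCRNA.751, SPNCRNA.1556 and SPNCRNA.1532 with quantile normalization (from 0.0644 to 0.123) and without a minimum FPKM (from 0.0512 to 0.0939). Without a minimum length or without the intensity trend, SPNCRNA.1562, SPNCRNA.751 and SPNCRNA.1556 lost it too (from 0.0520 to 0.0670). A further 3 rises on the arms, with means under 5 FPKM, were named after their values were seen, and each changed by more than SPNCRNA.1562, by 2.57, 2.15 and 1.62 in the order given. SPNCRNA.1609 beside exg1, a cell wall glucanase gene that rose by 3.40, was at 7.22 and 6.56 FPKM against 0.000724 and 0.760 FPKM. SPNCRNA.201 beyond the hexokinase gene hxk2, which rose by 1.21, was at 4.32 and 2.70 FPKM and listed at 0 in wild type. SPNCRNA.175 was at 1.99 and 2.18 FPKM and listed at 0 in wild type. The call of each was lost with either deletion-labelled library left out. That of SPNCRNA.175 was also lost with median-ratio rescaling, quantile normalization and the replicate block. That of SPNCRNA.1609 was also lost with 0.1 FPKM added in place of 1.

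Most called non-coding RNAs had a nearest coding gene that was not called, as were most coding genes. Over all coding genes tested, 13.1% were called higher and 3.49% lower. The counts below were not tested against these shares. Of the 26 that rose, 12 had a nearest coding gene that rose, 1 had one that fell (yox1, a repressor gene of the cell cycle, near SPNCRNA.371), and 13 had one that was not called. Of 33 that fell and had a tested neighbour, 7 had one that fell, 1 had one that rose (pim1) and 25 had one that was not called. Among 233 that were not called, 35 neighbours rose and 12 fell. By sign alone, 18 of the 26 that rose (69.2%) had a neighbour with a positive change, as had 66.5% of all coding genes tested, and 17 of the 33 that fell (51.5%) had one with a negative change, as had 33.5% of coding genes. Over all 292 pairs the changes had a Pearson correlation of 0.42 and a Spearman correlation of 0.22; over the 246 pairs on the rest of the arms these were 0.23 and 0.16. The pairs share the same 4 libraries and 243 distinct coding genes, so this is a description and carries no p.

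The pairs were also split by arrangement. Transcripts divergent from their coding gene, the most common arrangement with 178 of the 425, had a Pearson correlation of 0.50 over 123 pairs. Those downstream of it on the same strand had 0.65 over 39 pairs, convergent ones 0.40 over 41, and those upstream on the same strand, which run towards the gene, 0.10 over 89. Spearman correlations were 0.39, 0.24, 0.17 and 0.12 in that order. Of 90 tested upstream on the same strand, 3 rose and 11 fell; of 42 tested downstream, 6 rose and 3 fell; of 127 divergent, 13 rose and 18 fell; of 42 convergent, 4 rose and 5 fell. Over all genes tested 11.9% were called higher and 4.37% lower, and no difference between arrangements was tested.

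**Figure D5:**
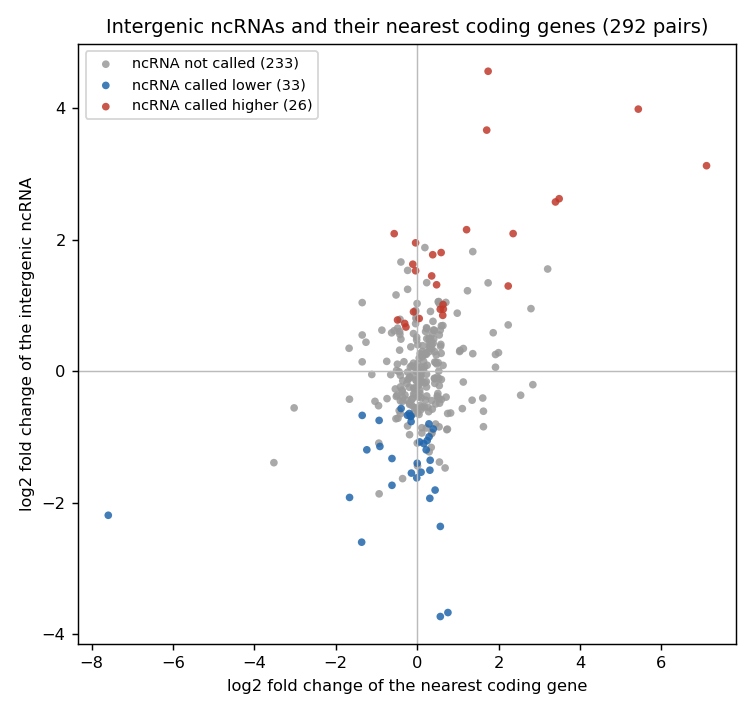
Log2 fold change of each tested intergenic non-coding RNA (y axis) against that of its nearest coding gene (x axis), for 292 pairs, by the call of the non-coding RNA. Of the 26 that rose, 12 have a neighbour that rose, beside 13.1% of all coding genes tested. SPNCRNA.31 and SPNCRNA.398 lie at the bottom beside neighbours with positive changes.

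The RNAs with names of their own include the stable, functional ones. A symbol was attached to 43 of the 425, with 37 distinct symbols. Of 34 tested, 3 rose (prl37, meu19 and mrp1) and 5 fell (the 2 overlapping entries of nam3, prl2, prl59 and snoR61). Among all intergenic non-coding RNAs tested 8.64% were called higher and 12.3% lower, and among all genes tested 11.9% and 4.37%. No difference from these shares was tested. The entry SPNCRNA.727 of mrp1, the RNA of the RNase MRP enzyme that processes ribosomal RNA, was at 83.0 and 85.4 FPKM against 50.4 and 45.6 FPKM, adjusted p = 0.0124, whereas the shorter entry SPNCRNA.82 at the same locus was at 38.6 and 15.9 FPKM against 48.0 and 9.35 FPKM and did not pass the test. The small nucleolar RNA host snoR61 was at 583 and 523 FPKM against 1059 and 1326 FPKM, with a change of -1.10 ± 0.16, adjusted p = 0.0168. The poly(A)-bearing RNA prl2 was at 17.3 and 13.7 FPKM against 32.0 and 64.3 FPKM (adjusted p = 0.0473), and prl59 at 115 and 122 FPKM against 180 and 203 FPKM (adjusted p = 0.0198). The calls of mrp1, snoR61, prl2 and prl59 were lost with either deletion-labelled library left out (adjusted p from 0.183 to 0.295), and that of prl2 also with median-ratio rescaling (0.0548), quantile normalization (0.0628), no minimum FPKM (0.104), no minimum length (0.0585) and no intensity trend (0.0720).

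Among the names without a call, srp7, the 7SL RNA of the signal recognition particle that carries ribosomes to the endoplasmic reticulum, was at 371 and 263 FPKM against 438 and 265 FPKM, groups that overlap. The meiotic RNA sme2 was at 112 and 108 FPKM against 165 and 335 FPKM (adjusted p = 0.0868), and omt3, a further RNA of the meiotic Smp foci, at 855 and 838 FPKM against 998 and 1486 FPKM (adjusted p = 0.152). For these 2 the groups do not overlap but the wild type libraries differ widely. The RNA fbp1-ot2 was at 20.8 and 22.2 FPKM against 14.0 and 2.92 FPKM (adjusted p = 0.150), beside wwm3, which rose by 3.21. The RNA aal1 was at 2.71 and 3.07 FPKM against 0.599 and 1.19 FPKM (adjusted p = 0.0772), and prl12 at 26.6 and 20.9 FPKM against 8.85 and 13.9 FPKM (adjusted p = 0.0543). Without wild type library 1, sme2, omt3, fbp1-ot2, aal1 and prl12 each passed the test (adjusted p from 0.000363 to 0.0446), and so did all but omt3 without wild type library 2 (from 0.00462 to 0.0211). In these fits the spread comes from the deletion-labelled pair alone, and many more genes pass over the whole table, so passing there adds nothing to the result with all 4 libraries.

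The 5 most abundant transcripts made up between 41.3% and 52.8% of the summed FPKM of the intergenic non-coding RNAs. SPNCRNA.510 was at 5511 and 4589 FPKM against 4572 and 4539 FPKM, SPNCRNA.507 at 2545 and 2260 FPKM against 2300 and 3571 FPKM, and SPNCRNA.120, annotated as expressed in stationary phase and quiescence, at 1959 and 1329 FPKM against 1225 and 1001 FPKM. These 3 are shorter than 200 nt and were not tested, since FPKM is unreliable for transcripts near the length of a fragment. SPNCRNA.1094 on chromosome III was at 1481 and 1111 FPKM against 2240 and 1271 FPKM, groups that overlap, and consists wholly of repeated sequence; without wild type library 2 it was called lower (adjusted p = 0.0316). SPNCRNA.79 was at 997 and 1080 FPKM against 1622 and 1924 FPKM, with a change of -0.77 ± 0.15, adjusted p = 0.0348. It lies within SPNCRNA.672, which fell by 0.68, next to rad15, a TFIIH subunit gene with no call. Without deletion-labelled library 1 or 2, SPNCRNA.79 was not called (adjusted p = 0.443 and 0.365), nor was it without a minimum FPKM (0.0575).

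Sequence motifs before the starts were compared over 370 windows of intergenic non-coding RNAs and over the 1897 windows of all genes with the same start and end in RefSeq. The 1897 include the 370 and hold windows of only 303 of the 5159 coding genes, so most coding genes were not searched. The Loz1 response element, searched on both strands, was found in 0 of the 370 and in 7 of the 1897 (0.369%). At so low a share, 0 of 370 cannot be set apart from the other windows. TTCTTTGTT, the core of the site bound by Ste11, the HMG-box activator of mating and meiosis genes, was found on either strand in 9 of the 370 (2.43%) and in 44 of the 1897 (2.32%). It was in 3 of the 32 windows of transcripts that fell and in 0 of the 24 of those that rose. TATAAA was in 174 of the 370 (47.0%) and in 45.7% of the 1897, in 19 of the 32 that fell and in 8 of the 24 that rose. TATAAA and TTCTTTGTT do not overlap in sequence, and a match is a description of the letters only.

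The 3 windows of falling transcripts with TTCTTTGTT are shown around the motif, which is in capitals, on the strand that reads it, with 25 bases on either side (build ASM294v3). The choice of these 3 followed from the calls.
SPNCRNA.867, I:2972819-2972877, minus strand: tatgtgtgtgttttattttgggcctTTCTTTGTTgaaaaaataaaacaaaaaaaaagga
SPNCRNA.993, I:4514932-4515210, minus strand: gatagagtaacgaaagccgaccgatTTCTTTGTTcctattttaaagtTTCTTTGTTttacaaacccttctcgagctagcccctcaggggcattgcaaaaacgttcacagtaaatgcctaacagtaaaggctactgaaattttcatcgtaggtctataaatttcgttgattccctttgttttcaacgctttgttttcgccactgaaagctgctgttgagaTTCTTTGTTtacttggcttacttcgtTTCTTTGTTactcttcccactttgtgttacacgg
SPNCRNA.512, III:2107372-2107430, minus strand: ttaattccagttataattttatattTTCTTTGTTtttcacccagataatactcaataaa
SPNCRNA.993 has 4 copies of the motif. It was at 17.2 and 16.5 FPKM against 30.2 and 48.9 FPKM (adjusted p = 0.0409) and is divergent, 166 nt away, from mei2, which codes for the RNA-binding protein that starts meiosis. The gene mei2 fell as well, to 63.1 and 57.6 FPKM from 109 and 121 FPKM, with a change of -0.92 ± 0.11, adjusted p = 0.0101. SPNCRNA.512 was at 12.4 and 19.3 FPKM against 30.5 and 44.3 FPKM, adjusted p = 0.0476. Its call was lost without a minimum FPKM, without a minimum length, and without the intensity trend. It was also lost with median-ratio rescaling, with quantile normalization and with 0.1 FPKM added in place of 1. The call of SPNCRNA.993 was lost without a minimum FPKM, with quantile normalization and without the intensity trend. Both SPNCRNA.512 and SPNCRNA.993 also lost their call with either deletion-labelled library left out, and SPNCRNA.512 without wild type library 2. SPNCRNA.867 kept its call in all of these settings.

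Genes whose products limit such RNAs were counted by list, beside 11.9% of all genes tested called higher and 4.37% called lower. In lists of 12 to 17 genes the counts of 0 to 2 for RNA decay, termination and chromatin are near those shares or too few to be set apart from them. Of 16 genes of the nuclear exosome and its cofactors, 2 rose, rrp42 by 0.95 (a core subunit) and cid14 by 0.73 (a poly(A) polymerase that marks RNA for decay), with a median of 0.24 beside 0.13 over all genes. Of 13 genes of MTREC and Mmi1-dependent elimination, 1 fell, red5 by 0.47, and the median was 0.25. None of 17 genes of RNA interference and heterochromatin was called by limma (3 had an unadjusted p under 0.05), with a median of 0.01. None of 12 genes of cytoplasmic RNA decay was called by limma (4 had an unadjusted p under 0.05), with a median of 0.21. Of 15 genes of transcription termination and cleavage, 1 rose, seb1 by 0.48, an RNA-binding termination factor, with a median of 0.17. Of 16 chromatin factors that limit intergenic transcription, 2 rose, the histone deacetylase gene clr6 by 0.55 and alp13, a subunit gene of its complex, by 0.61, with a median of 0.16. Of 12 zinc and Loz1 genes, 7 rose, loz1 itself among them, and 2 fell, with a median of 2.19. One of the 12, the zinc transporter gene zhf1, was the nearest coding gene of an intergenic non-coding RNA, SPNCRNA.187; neither passed the test.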

How the data were processed

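RNA was sequenced from 2 wild type libraries and 2 labelled loz1 deletion. Per the submitters' processing notes, HISAT2, Cufflinks, SAMtools and Cuffdiff were used with build ASM294v2; no version or setting is stated in the labels or files used. The authors deposited, per library, transcripts with FPKM values, their bounds and coverage; a score column they also deposited was not used. FPKM were summed over the transcripts of a gene. Read totals are not given: 1 FPKM corresponded to a mean coverage of 1.76 to 2.00 reads, so depth limits low transcripts and no counting interval is given. Labels and files give no batch.

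The test was limma 3.58.1 (R 4.3.3) on log2(FPKM + 1), trend on intensity, adjusted by Benjamini-Hochberg over the 6315 genes whose mean reached 1 FPKM and whose longest transcript reached 200 nt, checked on simulated data; fold changes of low transcripts are understated on this scale. Nearest coding gene means the smallest gap between exons. Sequences came from the RefSeq genome and annotation, read only where a transcript's identifier, start and end match (370 of 425). Repeats were 100-nt stretches found elsewhere in the genome. Named were the 12 largest rises and 8 largest falls among calls with a mean of at least 5 FPKM, the 5 highest levels, the 5 farthest from coding genes, all with a symbol, and up to 4 genes a list. Members and lists were chosen with earlier results of these data known. The neighbour of 1 named transcript is not reported here.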

Additional observations from a re-analysis of the deposited data

How the results depend on the processing

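The counts depended on the settings. No called intergenic non-coding RNA changed direction under any of the 13 settings tried, but many of these settings could not have reversed one. The filters, the fit without the intensity trend and the replicate block leave the log2 fold change itself as it was. Leaving out 1 library cannot reverse a change where the groups do not overlap. The 26 that rose became 17 with median-ratio rescaling and 15 with quantile normalization, and 16 when only the 160 tested transcripts with no overlap were kept. With a minimum of 5 FPKM only 16 of the 26 rises and 32 of the 37 falls were tested, and all of these stayed called. Without the ends, centromere and mating-type intervals 15 were left. Another 15 is the count when only transcripts with RefSeq sequence known to be at most 50% repeated were kept. These last 2 counts were added after seeing the data. The 37 that fell became 23 without a minimum FPKM and 17 with no overlap. Over all genes, 753 rises became 428 with median-ratio rescaling and 410 with quantile normalization, and 276 falls became 176 without a minimum FPKM. Leaving out 1 library at a time gave 5 to 60 rises and 5 to 94 falls among the intergenic transcripts, and 73 to 2115 and 40 to 880 over all genes; the group left with 1 library takes its spread from the other pair, and the wild type pair lies wider than the deletion-labelled one. Labels number the libraries of both groups 1 and 2, but same-numbered libraries did not deviate together (r = -0.01 across genes, 2 pairs), so they share only a number. With the replicate block 21 rose and 39 fell, and 538 and 224 over all genes. Low levels limit the 73 transcripts under 1 FPKM, which were not tested.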
